A study of Mus musculus with 16 samples.

Results

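The miR-23, miR-27 and miR-24 family was followed through 6 sorted bone marrow populations. Its members were the non-control probes named mmu-miR-23a, mmu-miR-27a, mmu-miR-24, mmu-miR-23b and mmu-miR-27b (the mmu- prefix, for mouse, is left off below), which made 5 of the 577 miRs on the array. Members were picked by name and not by a cut on their signal, but with earlier results of these data known. Each was carried by 2 probes, 10 probes in all.

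The arrays were Agilent mouse miR arrays labelled in a single colour, 16 in number, each hybridised with total RNA of cells sorted from the bone marrow of female C57Bl/6 mice aged 6 to 8 weeks. No allele or agent was given to any group, and each replicate sample pooled the marrow of 10 to 20 mice. All cells were depleted of lineage antigens, enriched for c-kit and then sorted by surface antigens. The HSC subsets were long-term hematopoietic stem cells (LT-HSC, 1 array), short-term HSC (ST-HSC, 3 arrays) and multipotent progenitors (MPP, 3 arrays). Below them were the CMP (common myeloid progenitors) and its daughters, the GMP of the granulocyte-monocyte branch and the MEP of the megakaryocyte-erythroid branch, with 3 arrays each. These 3 are called myeloid progenitors.

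These miRs are transcribed as 3 hairpins in a row from a pair of loci. In one locus the order is miR-23a, miR-27a and miR-24-2, in the other miR-23b, miR-27b and miR-24-1, and mates of a cluster are cut from a shared primary transcript. The miR-23a cluster is known as a target of PU.1, the transcription factor that drives granulocyte-monocyte and lymphoid fates and that opposes the erythroid factor GATA-1. A miR selects its targets mainly by its seed, the stretch from base 2 to base 8. miR-27a is known for repressing Runx1, a regulator of blood cell formation, and miR-24 for acting on the activin receptor in erythroid cells.

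The mature sequences are shown because they set what an array can and cannot separate within this family. Sequences of 4 of the 5 members and positions of all 6 hairpins matched the RefSeq table (build GRCm38.p6). They are written 5′ to 3′ with the seed in capitals.
miR-23a-3p: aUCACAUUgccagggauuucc
miR-27a-3p: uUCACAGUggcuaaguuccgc
miR-27b-3p: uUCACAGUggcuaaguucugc
miR-24-3p: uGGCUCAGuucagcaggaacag

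miR-27a and miR-27b had the same seed, which no other mature entry of the table held, and were identical at 20 of 21 bases. Their difference, counted from 1 at the 5′ end of miR-27a, was C19U. No other entry held the seed of miR-23a, but the sequence of its paralog miR-23b was missing from the table. Whether miR-23a and miR-23b share a seed was therefore not read here. Mature miR-24 was the same 22 bases from both loci, so its probes read the sum of Mir24-1 and Mir24-2. How far a probe for one member also captured its near-identical paralog was not measured on these arrays.

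The miR-23a hairpins lay on the plus strand at chr8:84208518-84208921, a span of 404 bases, with 79 bases between Mir23a and Mir27a and 56 bases between Mir27a and Mir24-2. No protein-coding gene of the table overlapped them, and Zswim4 was the nearest such gene downstream. The miR-23b hairpins lay on the plus strand at chr13:63300484-63301275, a span of 792 bases, with gaps of 154 and 423 bases. That locus falls within the span of the protein-coding gene Aopep, on which exons and introns were not resolved here. Each Mir24 hairpin also overlapped a further annotated miR gene, Mir3074-2 on chromosome 8 and Mir3074-1 on chromosome 13.

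Values below are log2 normalized signals, and 237 miRs with a probe well above background on at least 3 arrays were tested together. A miR was called where its adjusted p, corrected over those 237, was under 0.05. All 5 members were measured well above background on every array, 80 readings of 80. Summed probe signal before normalization ranged from 34810 units (LT-HSC 1) to 335064 units (GMP 2). The arrays lay on 3 slides. The myeloid progenitors of slide 1 were replicates 1 and 2, and those of slide 2 were replicate 3. LT-HSC 1 and ST-HSC 1 were also on slide 2, and every MPP array was on slide 3 beside the remaining ST-HSC arrays. No slide held both MPP and myeloid progenitor arrays.

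Markers were read against the labels. The granulocyte-monocyte miR-223 was highest on the 3 GMP arrays, the summed erythroid miRs (miR-144, miR-451 and miR-486) lay between 11.98 and 12.60 in MEP, and the 4 stromal miRs on the array were not well above background on any of them. Summed stem cell miRs (miR-125a-5p, miR-125b-5p and miR-99a) lay between 9.91 and 10.47 in the HSC subsets and between 5.01 and 8.93 in the myeloid progenitors. The lymphoid miR-150 was highest in MPP (7.08 to 7.29), and miR-142-3p of all blood cells read 11.15 or more throughout. The LT-HSC array stood apart, with summed erythroid miRs at 11.22 against 5.10 to 8.27 in the other populations outside MEP. Where leaving it out moved a value by much, the value without it is given too.

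The leading comparison was GMP against MEP, the granulocyte-monocyte and the erythroid branch below CMP. Each member was higher in GMP than in MEP, by 3.16-fold to 10.7-fold, and the GMP and MEP arrays did not overlap for any of them, as was so with GMP on top for 44.7% of the tested miRs. In these RNA pools, fewer cells carrying a miR and less of it per cell cannot be told apart.

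miR-27a read 9.55, 9.62 and 9.85 in GMP and 6.15, 6.63 and 5.97 in MEP. This was the widest gap of the family, a log2 difference of 3.43 ± 0.32 (SE, n = 3 against 3; 10.7-fold, limma adjusted p = 1.1e-06). It ranked 5 of 237 by size of the difference in the GMP direction.

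miR-23a, the leading hairpin of the same transcript, read 10.27, 10.42 and 10.48 in GMP against 7.58, 7.65 and 6.98 in MEP. The difference was 2.99 ± 0.20 (7.92-fold, adjusted p = 3.61e-07), rank 12 in that direction. miR-24 read 9.31, 9.40 and 9.31 in GMP and 7.35, 7.35 and 6.55 in MEP. Its difference of 2.26 ± 0.24 (4.78-fold, adjusted p = 4.28e-06) was the smallest within the miR-23a cluster.

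The paralogs moved less. miR-27b read 8.80, 8.98 and 9.09 in GMP and 6.98, 6.89 and 6.89 in MEP, a difference of 2.04 ± 0.31 (4.1-fold, adjusted p = 8.88e-05). miR-23b read 9.20, 9.44 and 9.16 in GMP and 7.80, 7.71 and 7.31 in MEP, a difference of 1.66 ± 0.24 (3.16-fold, adjusted p = 6.27e-05).

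All 5 members were thus called higher in GMP, where 40.9% of the 237 tested miRs were called in that direction and 62.9% in either. The median difference was 2.26 for the members and 0.44 for all tested miRs. The direction was the same within slides, where 2 GMP and 2 MEP arrays of slide 1 gave 2.73 for miR-23a, 3.20 for miR-27a, 2.01 for miR-24, 1.56 for miR-23b and 1.95 for miR-27b. The GMP and MEP array of slide 2 gave larger gaps, in the same order 3.50, 3.89, 2.76, 1.85 and 2.20. Other scalings moved the median of all miRs by -0.43 to 0.65 log2, and each member was called higher in GMP under each of them.

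**Figure D1:**
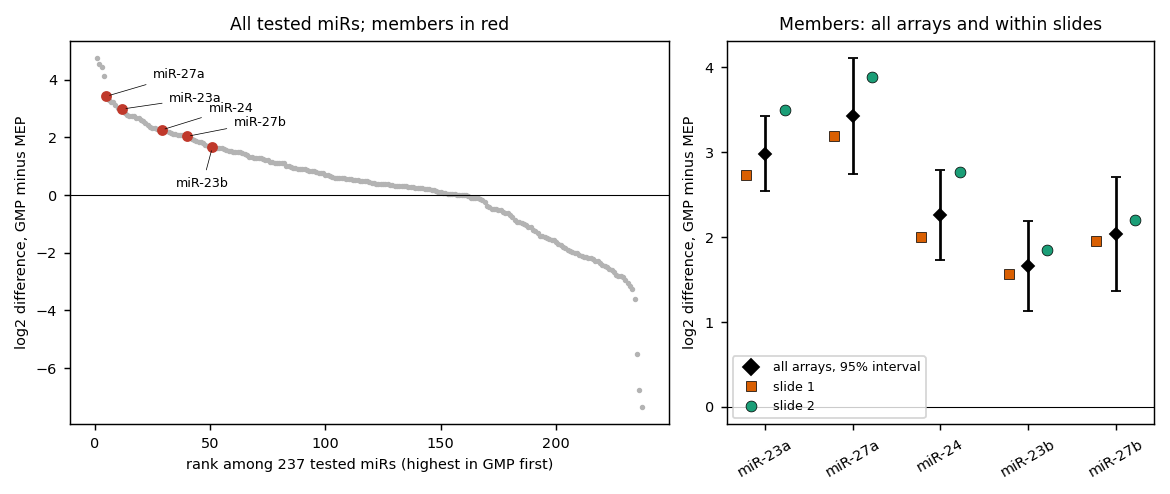
Log2 differences between GMP and MEP. Left, all 237 tested miRs ranked from highest in GMP (grey), with the 5 members in red between ranks 5 and 51. Right, each member over all arrays (black, with 95% interval of the limma fit) and within slide 1 and slide 2; each value lies above 0, from 1.56 for miR-23b on slide 1 to 3.89 for miR-27a on slide 2.

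The other probe of each member gave the same direction, although it shares the array and the RNA. GMP exceeded MEP by 3.15 for miR-23a, 3.99 for miR-27a, 2.19 for miR-24, 1.91 for miR-23b and 2.66 for miR-27b with that probe. Across the 16 arrays the paired probes of a member correlated at Pearson r between 0.978 and 0.997, as a description.

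CMP, the population above both branches, resembled GMP in these miRs. No member was called between GMP and CMP by limma, where 7.59% of the tested miRs were. None was called at unadjusted p either, where 50 of the 237 tested miRs were. The differences were 0.14 for miR-23a (95% interval -0.29 to 0.58), 0.27 for miR-27a (-0.41 to 0.95), 0.16 for miR-24 (-0.37 to 0.68), -0.10 for miR-23b (-0.63 to 0.42) and -0.01 for miR-27b (-0.69 to 0.66). These intervals leave room for differences of up to 0.95 log2, and the signs of the miR-23b and miR-27b values turned under other scalings.

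MEP against CMP repeated the gap seen against GMP, with the MEP arrays shared by both comparisons. All 5 members were lower in MEP than in CMP, where 43.9% of the tested miRs were called lower. The CMP arrays of miR-27a read 8.98, 9.14 and 10.12, and MEP was 8.93-fold lower (log2 difference -3.16, adjusted p = 2.87e-06). miR-23a read 10.24, 10.08 and 10.42 in CMP and was 7.16-fold lower in MEP (-2.84, adjusted p = 1.35e-07). The log2 differences of the other 3 members were -2.10 (miR-24), -1.76 (miR-23b) and -2.05 (miR-27b).

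Over all 6 populations each member varied (limma F, adjusted p from 9.16e-08 for miR-23a to 8.57e-05 for miR-27b, 5 of 5 called), as did 82.7% of the tested miRs. The members differed in where they were high. miR-23a read 10.15 in LT-HSC, 10.48, 10.66 and 10.66 in ST-HSC and 10.72, 10.72 and 10.89 in MPP. Its order was MPP, ST-HSC, GMP, CMP, LT-HSC and MEP, and no neighbours above MEP were called apart, although the ST-HSC and MPP arrays did not overlap. Only the last step, LT-HSC over MEP, was called (2.75, adjusted p = 1.29e-05; 27.8% of tested miRs were called between that pair).

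miR-27a was highest in GMP (9.68 ± 0.16, SD, n = 3), followed by CMP (9.41 ± 0.62), ST-HSC (9.25 ± 0.47), MPP (8.81 ± 0.18), LT-HSC (8.10, 1 array) and MEP (6.25 ± 0.34). Again the last step, LT-HSC over MEP, was the only difference called between neighbours (1.85, adjusted p = 0.00737). GMP was above MPP (MPP minus GMP -0.86, adjusted p = 0.0422) and above LT-HSC (LT-HSC minus GMP -1.57, adjusted p = 0.0126), pairs with 42.6% of tested miRs called in each case. GMP and MPP shared no slide, so slide and population cannot be told apart for that pair. ST-HSC 1 and CMP 3, both on slide 2, read 9.79 and 10.12, above the slide 3 and slide 1 arrays of their populations.

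miR-24 was the flattest member outside MEP. GMP (9.34 ± 0.06), CMP (9.18 ± 0.37), ST-HSC (8.97 ± 0.10), LT-HSC (8.93) and MPP (8.93 ± 0.09) lay within 0.41 log2 of each other, and no neighbours among them were called. MPP exceeded MEP, at 7.08 ± 0.47, by 1.85 (adjusted p = 1.92e-05), as 71.3% of tested miRs differed between them. MPP and MEP also shared no slide.

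miR-23b shared with miR-23a a maximum in MPP (9.68 ± 0.14), followed by CMP (9.37 ± 0.06), ST-HSC (9.36 ± 0.52) and GMP (9.27 ± 0.15), which were not called apart. The LT-HSC array, at 7.998, was below GMP (log2 difference -1.27, adjusted p = 0.0102) and not called apart from MEP, at 7.61 ± 0.26 (0.39, adjusted p = 0.503). The low miR-23b of LT-HSC 1 is 1 reading, and ST-HSC 1 on the same slide was also lower (8.76) than ST-HSC 2 and 3 (9.62 and 9.69). With the other probe of miR-23b, LT-HSC 1 (6.07) lay below the highest MEP array (6.15), so MEP was not below all others there.

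miR-27b had another shape. It was high in CMP (8.97 ± 0.51) and GMP (8.96 ± 0.15) and dropped to 7.62 ± 0.67 in ST-HSC, 7.36 ± 0.14 in MPP, 6.92 ± 0.05 in MEP and 6.55 in LT-HSC. The step from GMP to ST-HSC was called (ST-HSC minus GMP -1.34, adjusted p = 0.00612), as it was for 36.7% of tested miRs. These populations shared slide 2 only, where ST-HSC 1 read 8.40 and GMP 3 read 9.09. ST-HSC 2 and 3, on slide 3, read 7.22 and 7.24, so slide and population cannot be told apart for them. No neighbours among the lower 4 populations were called, and MPP over MEP was 0.44 (adjusted p = 0.22).

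**Figure D2:**
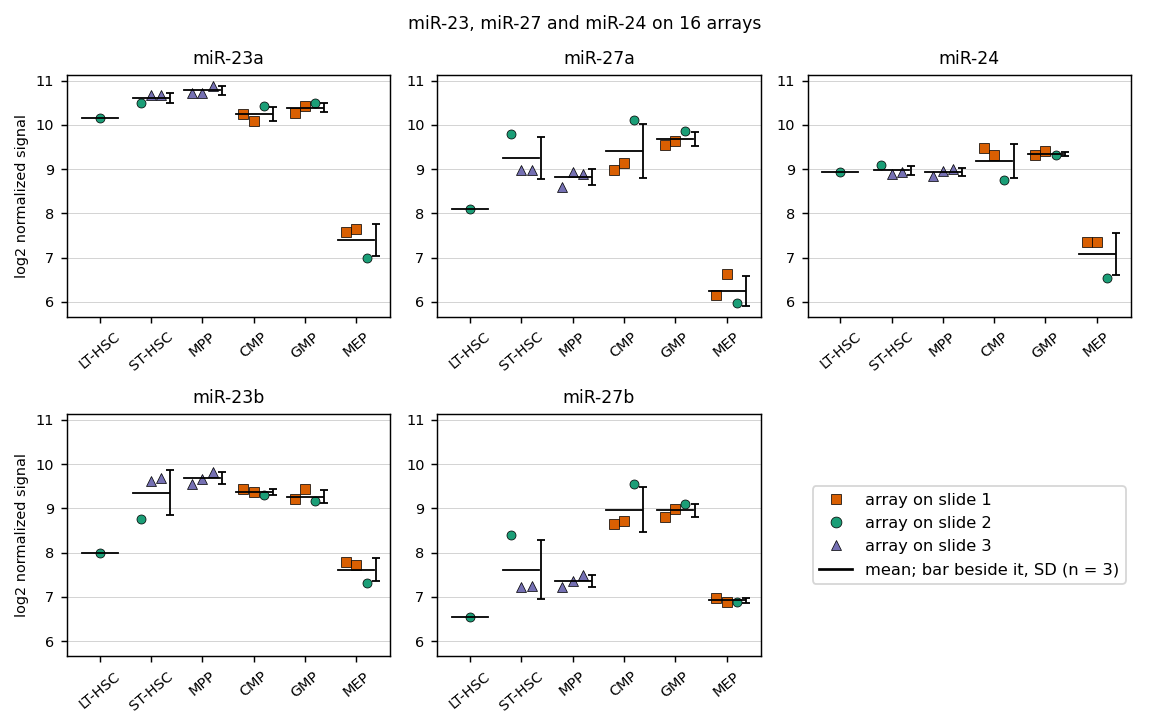
Log2 normalized signal of each member on each of the 16 arrays, by population, with the slide shown by colour and marker; horizontal lines are population means and the bars beside them SDs of 3 arrays. The MEP arrays lie below all others for miR-23a, miR-27a, miR-24 and miR-23b, without overlap as 21.9% of tested miRs do, whereas for miR-27b the LT-HSC array (6.55) lies below MEP.

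GMP was then set against the mean of the other 5 population means, which includes the low MEP. A call here does not make GMP the highest population. miR-27a and miR-24 were highest in GMP. miR-23a and miR-23b had higher means in MPP (10.78 and 9.68) than in GMP (10.39 and 9.27), and miR-27b was as high in CMP (8.97) as in GMP (8.96). Neither of these gaps between MPP and GMP was called (limma adjusted p = 0.141 and 0.19), and MPP and GMP shared no slide. Of the members, 4 were called higher, where 29.1% of tested miRs were. The differences were 1.47 ± 0.25 for miR-27b (adjusted p = 0.000422), 1.31 ± 0.25 for miR-27a (adjusted p = 0.00115), 0.72 ± 0.20 for miR-24 (adjusted p = 0.00931) and 0.55 ± 0.16 for miR-23a (adjusted p = 0.0139). miR-23b, at 0.46 ± 0.20, was not called (adjusted p = 0.0658). The call was gained at 0.67 once slide entered the fit as a block (adjusted p = 0.001), at 0.60 from averaged probes (adjusted p = 0.0228), at 1.14 after scaling arrays to their 75th percentile (adjusted p = 0.00348) and at 0.41 in the absence of ST-HSC 1 (adjusted p = 0.019). That scaling and no normalization also raised the other members, miR-23a to 1.34 and 1.64 and miR-24 to 1.44 and 1.74. Within slide 1 all 5 were higher in GMP than in the mean of CMP and MEP (0.74 to 1.86), and within slide 2 higher than in the mean of the other 4 arrays there (0.82 to 1.36). The GMP arrays overlapped the others for each of the members called, and the call of miR-23a was lost without GMP 2 (0.53, adjusted p = 0.0638). Without LT-HSC 1 the same members were called, miR-27b stood at 1.24 and miR-23b at 0.26 (adjusted p = 0.298).

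MEP against the mean of the other 5 was the wider contrast. All 5 members were called lower, where 44.3% of tested miRs were. miR-23a was 8.16-fold lower (log2 difference -3.03 ± 0.16, adjusted p = 6.53e-09) and miR-27a 6.96-fold lower (-2.80 ± 0.25, adjusted p = 6.01e-07). The differences were -1.99 for miR-24, -1.53 for miR-23b and -0.97 for miR-27b (adjusted p = 0.00394), the last pair of which were -1.82 and -1.31 without LT-HSC 1. The calls of miR-23b and miR-27b were lost without normalization between arrays, at -1.30 and -0.78.

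**Figure D3:**
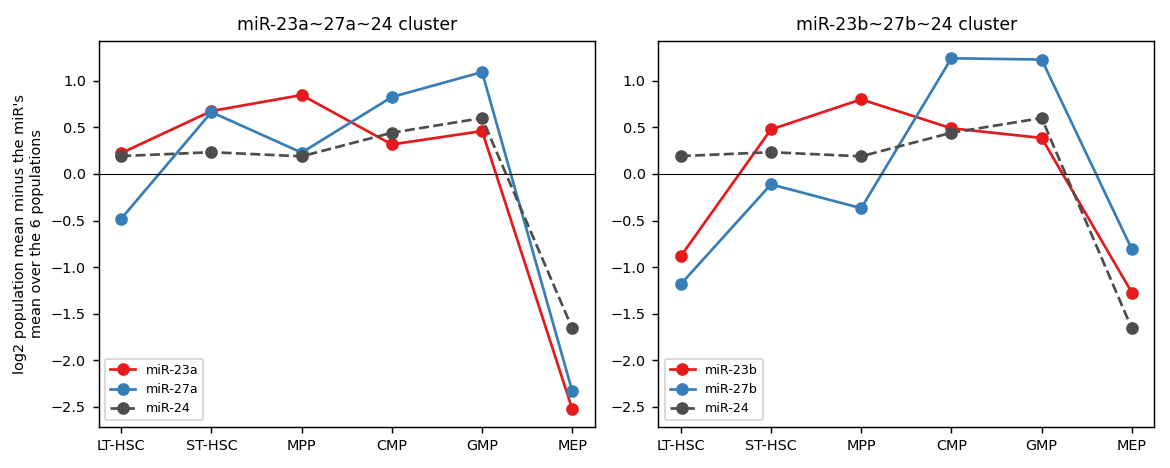
Mean log2 signal of each member in each population, minus the mean of that miR over the 6 populations, for the miR-23a cluster (left) and the miR-23b cluster (right); miR-24 (dashed) is the same measurement in both. The 3 lines of the miR-23a cluster are lowest in MEP, while in the miR-23b cluster miR-27b is high in CMP and GMP and lowest in LT-HSC.

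The HSC subsets were compared with the myeloid progenitors as a whole, a contrast in which the low MEP arrays lie on one side. miR-23a was called higher in the HSC subsets (1.16 ± 0.14, adjusted p = 1.28e-05), where 25.3% of tested miRs were, although the value was 0.43 when arrays were scaled on the 75th percentile of their probes (adjusted p = 0.104) and -0.08 with no normalization. miR-27b was called lower (-1.11 ± 0.21, adjusted p = 0.000837), where 22.8% were, and was called lower under each of the 14 alternatives (-2.08 to -0.69). The other 3 members were not called: miR-24 at 0.41 (adjusted p = 0.052), miR-27a at 0.28 (adjusted p = 0.311) and miR-23b at 0.26 (adjusted p = 0.202), with signs that turned under the same pair of scalings. With slide as a block miR-24 was called higher (0.84, adjusted p = 0.00312).

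The HSC arrays of miR-27b ran from 6.55 through a median of 7.24 to 8.40, and CMP and GMP lay above all of them while MEP lay among them. Within slide 2, with 1 array for each of 5 populations, the contrast was -1.04 for miR-27b, 1.02 for miR-23a, 0.81 for miR-24, 0.30 for miR-27a and -0.21 for miR-23b. Without the LT-HSC array all 5 members were called, miR-27b at -0.80 and the others higher in the HSC subsets (miR-27a 0.59, miR-24 0.42, miR-23b 0.77, miR-23a 1.35).

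The HSC subsets were then compared among themselves. No member was called between ST-HSC and MPP by limma, where 4.64% of tested miRs were. None was called at unadjusted p either, where 40 of the 237 tested miRs were. The differences ran from -0.32 (miR-23b, 95% interval -0.85 to 0.21) to 0.43 (miR-27a, -0.25 to 1.12). The single LT-HSC array was below ST-HSC and MPP for miR-23b (-1.52 ± 0.32, adjusted p = 0.0031), the only member called, where 29.1% of tested miRs were. That test assumes that LT-HSC varies like the other groups. Against ST-HSC 1, its neighbour on slide 2, LT-HSC 1 was lower by 0.77 for miR-23b, 1.68 for miR-27a and 1.85 for miR-27b (log2 differences -0.77, -1.68 and -1.85). Its summed erythroid miRs were 11.22 where ST-HSC arrays had 6.41 to 8.27, and their part in these values was not tested.

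Cluster mates were compared by their difference on each array, which asks whether a pair of members changed by the same amount. Between MEP and the 13 other arrays, 4 of 8 pairs passed a two-sided exact permutation test after adjustment over the 8. The share of pairs passing among all tested miRs was not taken, here or for the HSC split below. The permutation also treats arrays of all slides as exchangeable, while no MEP array lay on slide 3. miR-23a minus miR-24 was 0.32 in MEP and 1.38 elsewhere (0.76 to 1.89 on single arrays), a change of -1.06. miR-23a minus miR-23b went from 1.17 to -0.20 in MEP, a change of -1.37, and miR-27a minus miR-27b from 1.10 to -0.67, a change of -1.77. MEP did not overlap the other arrays in any of these 3 pairs (each exact p = 0.00179, the smallest the design allows, adjusted p = 0.00476). miR-27a minus miR-24 changed by -0.93 with overlap (exact permutation, adjusted p = 0.0393), and did not pass with normexp (-0.60), with the deposited values (-0.74) or without any 1 of the GMP or MEP arrays.

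So miR-23a and miR-27a of chromosome 8 fell further in MEP than their chromosome 13 paralogs, and miR-23a further than miR-24. Between miR-23a and miR-27a themselves the change was -0.13 (exact permutation, adjusted p = 0.748), with the 13 other arrays spread from 0.30 to 2.11. The 3 pairs of the miR-23b cluster did not pass either, at -0.53 for miR-23b minus miR-27b, 0.31 for miR-23b minus miR-24 and 0.83 for miR-27b minus miR-24. With GMP as the comparison, 3 arrays against 3 cannot go below an exact p of 0.1, which 6 of the 8 pairs reached. These were all but miR-23b minus miR-27b and miR-27b minus miR-24. Among them, miR-23a minus miR-27a was 0.71 in GMP and 1.15 in MEP, without overlap (GMP minus MEP -0.44).

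The same differences between the HSC subsets (7 arrays) and the myeloid progenitors (9 arrays) were examined after the data had been seen, and 6 of the 8 pairs passed. The permutation treats arrays of all slides as exchangeable, while slide 1 held myeloid progenitors only and slide 3 HSC subsets only, so slide 2 values are set beside each pair. miR-27a minus miR-27b lay between 1.39 and 1.76 on the HSC arrays and between -0.92 and 0.76 on the myeloid arrays, without overlap (change 1.38, exact permutation p = 8.74e-05, the smallest possible, adjusted over the 8 pairs p = 0.000699). On slide 2 alone it was 1.56 in LT-HSC 1 and 1.39 in ST-HSC 1 against 0.56 in CMP 3, 0.76 in GMP 3 and -0.92 in MEP 3.

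miR-23b minus miR-27b was 1.95 in the HSC subsets and 0.47 in the myeloid progenitors (exact permutation, adjusted p = 0.00186), with overlap. The 5 HSC arrays of slide 3 were at 2.30 to 2.45, but on slide 2 LT-HSC 1 was at 1.45 and ST-HSC 1 at 0.37 against -0.24 in CMP 3, 0.072 in GMP 3 and 0.42 in MEP 3. miR-27b minus miR-24 was -1.60 and -0.25 (exact permutation, adjusted p = 0.000699). On slide 2 it was -2.39 and -0.70 on the HSC arrays and -0.22 or more on the myeloid arrays, without overlap. The change of miR-23a was 0.82 against miR-27a (exact permutation, adjusted p = 0.00434) and 0.85 against miR-24 (adjusted p = 0.00315, also exact permutation). On slide 2 these changes were 0.72 and 0.22, with overlap in both. Its 0.71 against miR-23b (exact permutation, adjusted p = 0.0379) did not pass without LT-HSC 1 (0.57), and on slide 2 the change was 1.24 without overlap. By contrast, miR-27a minus miR-24 changed by 0.04 and miR-23b minus miR-24 by 0.14, and neither passed. On slide 2, however, miR-27a minus miR-24 changed by -0.51 with overlap. There miR-23b minus miR-24 changed by -1.02, with the sign turned and without overlap.

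**Figure D4:**
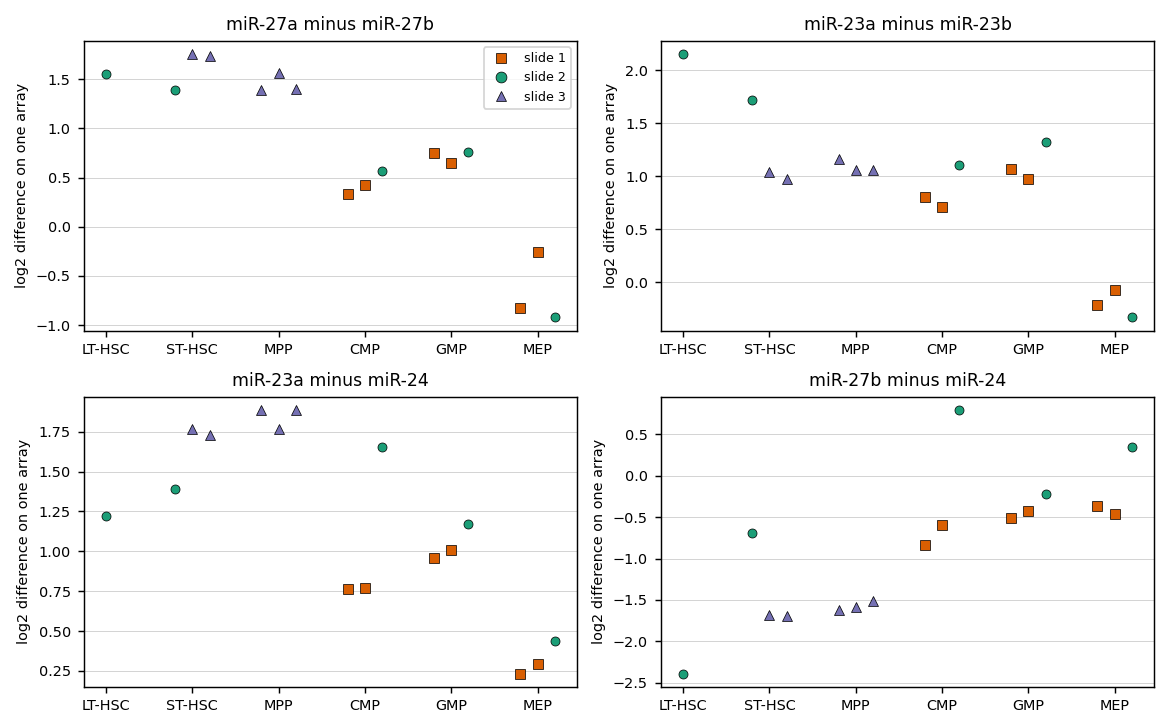
Difference between the log2 signals of a pair of members on each of the 16 arrays, by population, with the slide shown by colour and marker. miR-27a minus miR-27b falls from 1.39 to 1.76 on the HSC arrays to 0.33 to 0.76 in CMP and GMP and to below 0 in MEP, and miR-23a minus miR-23b and miR-23a minus miR-24 are lowest in MEP.

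Likeness of profile was described by Pearson r over the 6 population means, points that share arrays and normalization. miR-24 ranked 6 of 236 other miRs by likeness to miR-23a (r = 0.95) and 3 by likeness to miR-27a (r = 0.95). miR-23a and miR-27a ranked 2 and 3 by likeness to miR-24. With each other they stood at r = 0.90, where miR-27a ranked 16 for miR-23a and miR-23a ranked 13 for miR-27a. By likeness to miR-23b, miR-27b ranked 94 (r = 0.64) and miR-24 ranked 75 (r = 0.75), behind miR-27a of the other locus at 41 (r = 0.87).

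The single LT-HSC array is 1 of those 6 points, so r was also taken over the other 5 means, a choice made after the data had been seen. miR-24 then stood at r = 0.94 with miR-23b (rank 27), so its distance from miR-23b rested on the LT-HSC array, while miR-27b stood at r = 0.50 (rank 119). miR-23a rose from r = 0.81 with miR-23b (rank 54) to 0.99 (rank 4). miR-24 ranked 1 by likeness to miR-27a (r = 0.995) and 19 by likeness to miR-23a (r = 0.95). Also by likeness to miR-23a, the paralog miR-23b ranked 5 (r = 0.99) and the cluster mate miR-27a ranked 24 (r = 0.94).

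Over the 6 means, the miRs outside the family most like each member were miR-140*, miR-222 and miR-30d for miR-23a (r = 0.99, 0.97 and 0.97) and miR-450a-5p, miR-361 and miR-326 for miR-27a (r = 0.97, 0.95 and 0.95). For miR-24 they were miR-140*, miR-146b and miR-100 (r = 0.97, 0.94 and 0.93), and for miR-23b miR-221, miR-450b-3p and miR-362-3p (r = 0.996, 0.99 and 0.98). For miR-27b they were miR-140, miR-101a and miR-17* (r = 0.97 each). miR-221 and miR-222, which share a transcript and repress the receptor c-kit, thus stood near miR-23b and miR-23a. Without LT-HSC, miR-221 (rank 1) stayed among the 3 miRs most like miR-23b, and miR-222 ranked 8 for miR-23a.

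The passenger strands, the arms left after the mature miR is loaded, could separate the miR-24 loci, because they differ where mature miR-24 does not. They share their seed and their first 16 bases.
miR-24-2-5p: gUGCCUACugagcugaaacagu
miR-24-1-5p: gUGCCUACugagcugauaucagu

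Of 6 passenger names, 4 were on the array and 1, miR-24-2* of the chromosome 8 locus, passed the filter on low signals. It did so only through GMP, at 3.82, 4.06 and 3.75, being well above background on these 3 arrays and no other. The MEP arrays were at the floor of 1.62, and GMP was at least 1.17-fold higher, given with no test because the GMP arrays alone let it pass. ST-HSC 1 and CMP 3 also read 3.87 and 4.22 without being well above background. miR-24-1*, miR-27a* and miR-27b* were not well above background on any array.

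Other miRs described as linked to PU.1 in myeloid cells were read beside the family. All 6 were tested, and all 6 were higher in GMP than in MEP, with a median log2 difference of 2.68 against 2.26 for the members and 0.44 for all tested miRs, of which 40.9% were called higher. miR-223, a regulator of granulocyte production, read 14.04 on each GMP array and 9.97, 10.61 and 8.26 in MEP (difference 4.43, limma adjusted p = 1.41e-06). miR-155, which represses PU.1 itself, differed by 2.08 (adjusted p = 0.0012), and miR-322 by 1.10 (adjusted p = 0.00119). The other 3 were not well above background on any MEP array, and GMP was at least 14.03-fold higher for miR-338-3p, 3.72-fold for miR-342-3p and 2.08-fold for miR-146a, a repressor of Traf6 signalling (adjusted p = 6.2e-05, 4.06e-05 and 0.00211). For these bounds the mean of the GMP arrays was set against the lowest signal well above background on each MEP array, or the reading itself where higher.

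Between GMP and CMP none of the 6 was called higher and 1 was called lower, miR-322 (-0.92, adjusted p = 0.0341), where no member of the family and 7.59% of tested miRs were called. Between the HSC subsets and the myeloid progenitors 4 were called higher (miR-146a, miR-155, miR-322 and miR-342-3p) and 2 lower (miR-223 at -0.76 and miR-338-3p at -2.53), beside 25.3% and 22.8% of tested miRs. The miR-146a call includes the single LT-HSC array, at 8.80. Its means elsewhere were 6.28 in ST-HSC, 5.33 in MPP, 5.04 in CMP, 4.71 in GMP and 2.48 in MEP.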

How the data were processed

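RNA of 6 populations was hybridised to 16 single-colour Agilent miR arrays. Per the file headers, spots were read with Agilent Feature Extraction (9.5.3.1 on slide 1, 10.2.1.3 on slides 2 and 3). The deposited scanner files give spot intensity per array, not normalized between arrays. The processed signal of that software, with background subtracted, was used. The mean foreground and median background entered only the normexp alternative. The authors' deposited table of log2 values, quantile normalized in limma per the methods of the study, served as an alternative. Its rows carry counters only and were matched by order, which gave Spearman rho = 1 with the median foreground on all 16 arrays.

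Here control spots and outlier spots were left out (52 of the members' spots) and the 10 spots of a probe averaged. Probes were quantile normalized (limma 3.58.1, R 4.3.3), floored at 3.07 units and put on the log2 scale. Equal values on different arrays mark equal rank. No spot was saturated. Of 1712 probes, 493 were well above background on at least 3 arrays, and the brightest stood for each of 237 miRs. lmFit and eBayes took all 16 arrays with a mean per population (10 residual and 3.1 prior degrees of freedom), and p-values were adjusted by Benjamini-Hochberg. Differences of cluster mates were tested by two-sided exact permutation over arrays. The procedure was tested on simulated data. The number of arrays limits the precision.

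Groups came from the sample titles. Unnumbered CMP, GMP and MEP titles were taken as replicate 3. Replicates of CMP, GMP and MEP with the same number deviated together (r 0.23 to 0.63 over 9 pairs), those of ST-HSC and MPP did not (-0.04 to 0.12). These myeloid replicates of the same number always shared a slide. Myeloid pairs with different numbers also deviated together on a shared slide (r 0.30 to 0.45, 6 pairs) and oppositely across slides (-0.57 to -0.36, 12 pairs). The part of the slide in the likeness of same-number replicates was not tested. The methods do not say whether replicates came from separate mice, so p-values measure the spread between these samples, which may be technical. The text names the 5 members, 6 passenger strands, 6 PU.1-linked miRs, markers, and the 3 miRs most like each member. Members and lists were chosen with earlier results of these data known. The alternatives, 14 settings and 16 fits each without 1 array, changed the scaling, background, floor, filter, probe choice, variance trend, slide or replicate block, adjustment and source table.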

Additional observations from a re-analysis of the deposited data

How the results depend on the processing

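Every member was called higher in GMP than in MEP and lower in MEP than in CMP under all 14 alternatives and without any 1 array. With the replicate block 5 members were called between GMP and MEP (151 of 237 miRs), and the pairing changed no count of members called in any comparison.

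The cause of the following changes was not tested. The count of members called between LT-HSC and the ST-HSC and MPP mean, 1 as reported, was 2 with the 75th percentile of probes detected on all arrays, with normexp and with the deposited values, 3 with the 75th percentile of all probes, with the slide block and at unadjusted p, 4 with no normalization, and 1 to 2 without 1 other array (2 without MEP 3). Between the HSC subsets and the myeloid progenitors, 2 as reported became 1 with the 75th percentile of all probes and with no normalization, and 2 to 5 without 1 array (5 without LT-HSC 1). Between MEP and the others 5 became 3 with no normalization.

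Signs turned as follows. With the 75th percentile of probes detected on all arrays, LT-HSC against ST-HSC and MPP was 0.37 for miR-24 and 0.070 for miR-27b, and with the deposited values 0.088 for miR-24. With the 75th percentile of all probes, GMP against CMP was 0.17 for miR-23b and 0.31 for miR-27b, the HSC contrast was -0.35 for miR-27a, -0.32 for miR-24 and -0.28 for miR-23b, and ST-HSC against MPP was -0.31 for miR-24. With no normalization, GMP against CMP was 0.12 for miR-23b and 0.26 for miR-27b, the HSC contrast was -0.081 for miR-23a, -0.86 for miR-27a, -0.83 for miR-24 and -0.79 for miR-23b, and ST-HSC against MPP was -0.12 for miR-27a, -0.55 for miR-24 and -0.077 for miR-27b. With the mean of the probes, GMP against CMP was 0.11 for miR-27b. With the slide block, the HSC contrast was -0.079 for miR-23b, and ST-HSC against MPP was -0.015 for miR-24 and -0.13 for miR-27b. Without 1 array, ST-HSC against MPP ran from -0.013 to 0.080 for miR-24 and -0.13 to 0.46 for miR-27b, LT-HSC against ST-HSC and MPP from -0.040 to 0.010 for miR-24, and GMP against CMP from -0.053 to 0.30 for miR-24 and -0.18 to 0.28 for miR-27b.

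The change in miR-27a minus miR-24 at the HSC split was -0.044 with normexp, -0.047 with the mean of the probes and -0.095 to 0.22 without 1 array. Counts over all tested miRs moved by more than 1.5 times as follows. With only probes detected on all arrays they became 56 for GMP against MEP (149 as reported), 7 for GMP against CMP (18), 63 for MEP against CMP (153), 49 for GMP against the others (114), 71 for MEP against the others (162), 52 for the HSC contrast (114), 1 for ST-HSC against MPP (11), 29 for LT-HSC (69) and 85 for F (196). With no normalization they became 2 for GMP against CMP, 99 for MEP against CMP, 74 and 95 for GMP and MEP against the others and 0 for ST-HSC against MPP. With the slide block they became 68 for GMP against CMP, 42 for ST-HSC against MPP, and 132 in the LT-HSC contrast. The 75th percentile of probes detected on all arrays gave 32 for GMP against CMP and 7 for ST-HSC against MPP, and normexp gave 19 for the latter. At unadjusted p they were 50 for GMP against CMP, 40 for ST-HSC against MPP, and 105 in the LT-HSC contrast. Without 1 array, counts were 9 to 33 for GMP against CMP where moved, 1 to 22 for ST-HSC against MPP, and 72 for GMP against the others without GMP 2. The slide block is confounded in part with population, since MPP lay on slide 3 only.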
